A study of Sus scrofa with 5 samples.

Results

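The pig split-thickness skin graft treated with a hydrogel carrying a focal adhesion kinase (FAK) inhibitor, taken at day 90, was set against unwounded pig skin. Cells were chosen as barcodes with at least 500 genes detected, which gave 3829 cells of the inhibitor graft and 1586 cells of unwounded skin, 5415 of the 28654 such cells in the whole series. Genes were those with a symbol in the deposited gene tables, 14674 of 20286 identifiers. The series holds 5 single-cell RNA libraries of freshly digested pig skin, 1 per group, made with 10x Genomics 3′ chemistry. Full-thickness wounds were covered with split-thickness grafts, either left untreated or dressed with the inhibitor hydrogel and changed every other day. The inhibitor graft (STSG+FAKI, day 90) therefore carries the wound, the graft, the drug and the hydrogel at once, and the unwounded skin carries none of them. The untreated graft (STSG, day 90) is given beside it as a value and was not compared for its own sake. The number of pigs per library, their strain and their age are not given in the labels.

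A split-thickness graft transplants the epidermis with the upper dermis onto a wound bed, and the dermis beneath is rebuilt by fibroblasts that lay down collagen and matricellular proteins. FAK, the product of PTK2, is a kinase at the contacts between integrins and the matrix, and it relays mechanical tension into fibroblasts. Scar tissue is known for dense, crosslinked collagen, contractile myofibroblasts and the loss of hair follicles and glands.

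The inhibitor graft held 50159160 UMIs (unique molecular identifiers, counted RNA molecules) in these cells and the unwounded skin 18191126, with medians of 8180 and 7430.5 UMIs per cell. UMIs of all cells of a library were summed and scaled to CPM, a library's counts scaled to a common total. With 1 library per group no value has a replicate, so no test was made, and every interval is at 95% and covers counting error only. Mitochondrial genes took a median of 4.23% of UMIs per cell in the graft and 4.87% in unwounded skin. The libraries shared 152 cell barcodes, 3.72% of the graft's and 8.07% of the unwounded library's, where day 7 libraries shared 3 and 5 with unwounded skin. Where a shared barcode was far larger in the graft (85 barcodes), its copy in unwounded skin had a median of 1.04% of the larger copy's UMIs. For the 63 barcodes larger in unwounded skin, the graft copy had 1.40%. Among the cells used, such smaller copies, counted over all 5 libraries, numbered 32 in the graft and 31 in unwounded skin and carried 0.0790% and 0.154% of their UMIs. Without them 107 genes were higher and 248 lower, in place of the 105 and 247 given next. Of skin's defining markers, those of fibroblasts summed to 75125 CPM in the graft and 50246 CPM in unwounded skin, those of keratinocytes to 1897 and 9084 CPM and those of blood endothelium to 3365 and 3375 CPM. The 3 skeletal muscle markers measured summed to 2.63 and 3.57 CPM.

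The inhibitor graft at day 90 had far more RNA of SFRP2 and of 6 of 9 cartilage and tendon matrix genes than unwounded skin, and more of 7 of 14 wound matricellular genes. It had less RNA of all 19 epidermal genes and of 10 of 11 hair follicle and gland genes, in a library with a smaller share of epithelial cells. The capillary genes CD36, FABP4 and BTNL9 were lower, 3 of the 19 on their list. Of 7656 genes with at least 10 CPM in either library, 105 (1.37%) were at least 2-fold higher in the graft and 247 (3.23%) at least 2-fold lower, 4.6% either way. The remaining 7304 genes (95.4%) lay between. In the untreated graft at day 90, 96 of the 105 and 231 of the 247 also passed 2-fold the same way against the same unwounded library. The 2 readings share that library and are not independent. The median log2 ratio over all 7656 genes was -0.08, the value beside which the gene lists are read. A gene is called higher or lower below when it passes 2-fold at 10 CPM, a rule of size. Since the level may be met in either library, a gene can enter a list through the library where it is higher. In a whole-library sum, more cells of a type and more RNA per cell cannot be told apart. One alternative, called matched class weights, gave each cell class with at least 20 cells per library the same weight in both libraries. That weight was the mean of the class's shares of UMIs in the graft and in unwounded skin, so large classes still counted more. Values of the untreated graft beside these are read against the same unwounded library.

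**Figure D1:**
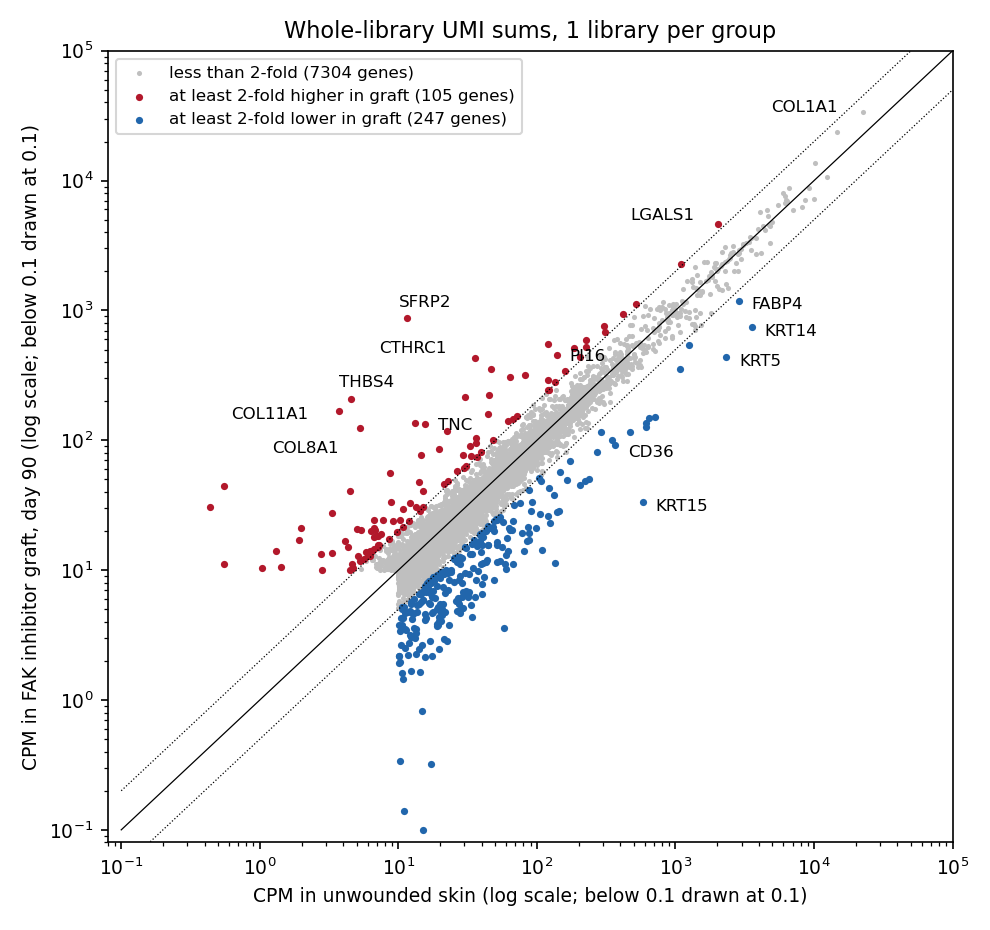
CPM of each gene in the inhibitor graft at day 90 (vertical, log scale) against unwounded skin (horizontal, log scale), for the 7656 genes at 10 CPM or more in either; dotted lines mark 2-fold. Matrix genes such as SFRP2 and THBS4 stand above the upper line and COL1A1 between the lines. Keratins (KRT14 and KRT5 not so with class weights matched between the libraries) and the capillary genes CD36 and FABP4 stand below the lower one.

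SFRP2, a secreted Wnt modulator of dermal fibroblasts, had the highest ratio of the ranked genes. It reached 878 CPM in the inhibitor graft, against 11.6 CPM in unwounded skin, 75.7-fold higher (66.1 to 87.1), and stood at 3758 CPM in the untreated graft. Its relative SFRP4 had 215 CPM in the graft, against 30.4 CPM in unwounded skin, 7.08-fold higher. Next to SFRP2 came genes better known from tendon and cartilage. The thrombospondin THBS4, abundant in tendon, had 208 CPM in the graft and 4.56 CPM in unwounded skin, 45.5-fold higher (36.7 to 57.2). COL11A1, a minor fibrillar collagen of cartilage, had 168 and 3.74 CPM, 45.0-fold higher (35.4 to 58.0). TNMD, the tendon membrane protein tenomodulin, had 20.9 CPM in the graft and 1.98 CPM in unwounded skin, and ACAN, the cartilage proteoglycan aggrecan, 27.6 and 3.30 CPM. The small proteoglycan FMOD, which shapes collagen fibrils, was 5.30-fold higher and its relative ASPN 4.74-fold. Of the 20 genes on the cartilage and tendon list, 9 reached the level: 6 were higher, 1 was lower and the median log2 ratio was 2.41, against -0.08 over all genes. The lower one, the transcription factor SOX9, is also active in hair follicles and had 5.0 CPM in the graft, against 20.5 CPM in unwounded skin. THBS4, COL11A1, TNMD and ACAN reached the level through the graft alone, and SOX9 through unwounded skin alone. The level rule thus shapes this count and median, and 10 measured members below the level are left out of both. The cartilage genes COMP, CILP and COL2A1 stayed below 10 CPM in both libraries.

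Wound matricellular proteins, which tune cell behaviour within the matrix, were higher in 7 of 14 genes and lower in none, with a median of 0.92. CTHRC1, a secreted protein of activated fibroblasts, had 433 CPM in the inhibitor graft, against 35.8 CPM in unwounded skin, 12.1-fold higher (11.2 to 13.1). Tenascin C (TNC) had 134 and 15.6 CPM, 8.61-fold higher, and the metalloprotease ADAM12, a gene of activated stroma, 56.1 and 8.74 CPM, 6.42-fold. Thrombospondin 2 (THBS2) was 3.85-fold higher, fibronectin (FN1) 2.26-fold with 946 CPM in the graft and 418 CPM in unwounded skin, and the tension-responsive CCN2 2.08-fold. The 2 most abundant members did not pass 2-fold: SPARC had 5699 CPM in the graft and 4098 CPM in unwounded skin, and periostin (POSTN) 2379 and 1595 CPM. The other genes with the highest ratios were FNDC1 (10.4-fold), the growth factor PTN (7.67-fold, 355 CPM in the graft and 46.3 CPM in unwounded skin), TGFBI, a matrix protein named for its induction by TGF-beta (4.98-fold), the retinoic acid carrier CRABP1 (4.56-fold), ANGPTL2 (3.59-fold) and the selenoprotein SELENOM (2.80-fold). In the untreated graft CTHRC1 stood at 887 CPM, TNC at 343 CPM and PTN at 881 CPM.

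**Figure D2:**
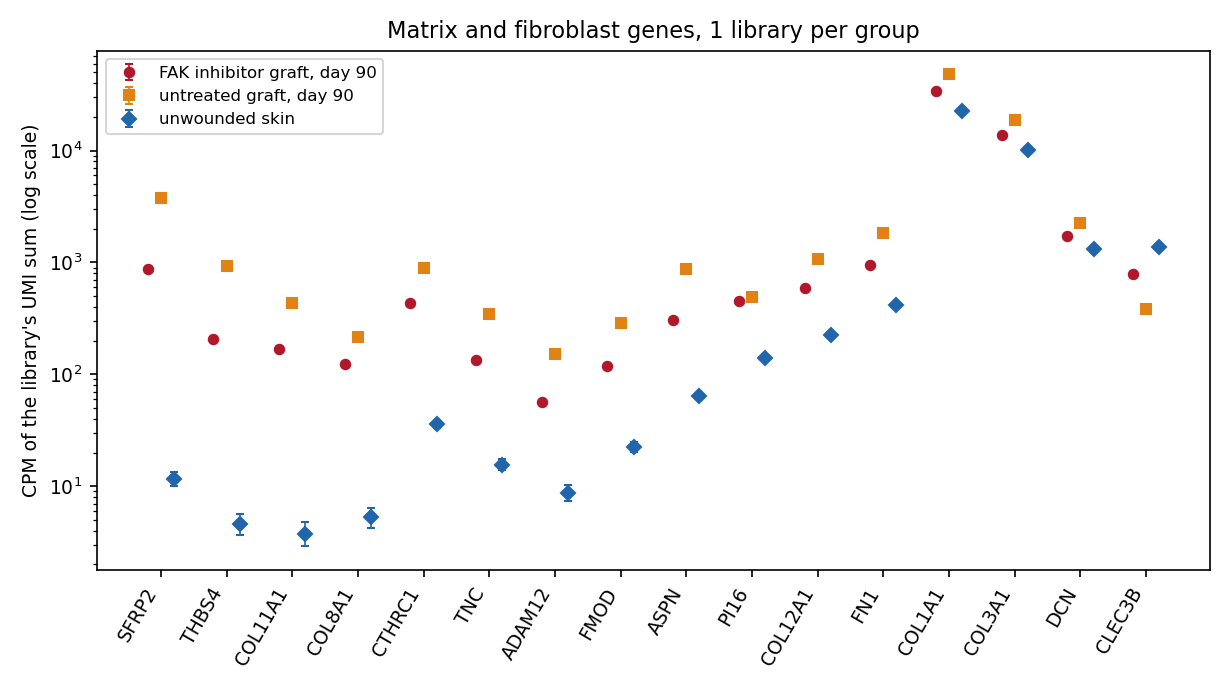
CPM (log scale) of 16 matrix and fibroblast genes in the inhibitor graft at day 90 (left of each trio), the untreated graft at day 90 and unwounded skin, 1 library each, with exact Poisson intervals that are narrower than most symbols. From SFRP2 to ADAM12 unwounded skin sits far below both grafts, for COL1A1 and COL3A1 the 3 libraries differ far less, and CLEC3B is highest in unwounded skin.

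Bulk collagens differed much less. COL1A1, the chief collagen of dermis, had 33902 CPM in the inhibitor graft, against 22503 CPM in unwounded skin, a ratio of 1.51, and COL3A1 had 13779 and 10148 CPM, a ratio of 1.36. All 12 collagens tested had ratios above 1 (median 0.68), but only 4 passed 2-fold. COL8A1, a short-chain collagen, was 23.5-fold higher (124 against 5.28 CPM), COL12A1 2.64-fold, COL5A2 2.47-fold and COL16A1 2.16-fold. With matched class weights COL8A1 alone kept its call, and the log2 ratios of COL12A1, COL5A2 and COL16A1 were 0.86, 0.70 and 0.49. Enzymes that hydroxylate and crosslink collagen were higher in 5 of 15 genes and lower in none, median 0.70. The prolyl hydroxylase subunit P4HA3 had 77.3 CPM in the graft and 14.7 CPM in unwounded skin, the lysyl oxidase LOXL1 85.8 and 19.7 CPM, and the lysyl hydroxylase PLOD2 18.0 and 6.71 CPM. LOX itself had 173 and 109 CPM, a ratio of 1.59.

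Small leucine-rich proteoglycans were higher in 3 of 10 genes, FMOD, ASPN and BGN (1117 CPM in the graft, 518 CPM in unwounded skin), with a median of 0.42, while decorin (DCN) had 1735 and 1315 CPM. Elastic fibre genes had 1 of 11 higher, MFAP4 at 2.17-fold, and a median of 0.46. Genes of adventitial fibroblasts, a progenitor-like population around vessels, had 2 of 10 higher and a median of 0.46. PI16, a marker of these cells, had 456 CPM in the inhibitor graft, against 139 CPM in unwounded skin, 3.27-fold higher. CLEC3B, on the same list, had 792 CPM in the graft and 1369 CPM in unwounded skin, a ratio of 0.579 that stayed between. Basement membrane genes were lower in 3 of 18, median -0.09. Among them are 2 genes of the junction between epidermis and dermis: COL17A1 had 14.4 CPM in the graft and 109 CPM in unwounded skin, and LAMB3 1.91 and 10.1 CPM. With matched class weights neither passed 2-fold, at log2 ratios of -0.65 and -0.04. Collagen IV of vessels did not follow them, with COL4A2 at 1018 and 649 CPM.

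All 19 epidermal genes at the level were lower in the inhibitor graft, with a median of -2.27, which turned to 0.14 with matched class weights. KRT14, a keratin of the basal layer, had 739 CPM in the graft, against 3565 CPM in unwounded skin, 4.82-fold lower (4.76 to 4.88). Its partner KRT5 had 434 and 2334 CPM, and both were level with matched class weights (log2 ratios of 0.14 and 0.022). KRT10 of the differentiated layers was the least changed, at 356 and 1078 CPM, 3.03-fold lower. KRT15, known from the basal layer and the stem cells of the hair follicle, had 33.4 CPM in the graft, against 580 CPM in unwounded skin, 17.4-fold lower (16.5 to 18.3). The desmosome genes DSP, DSG1 and DSG3 were 5.09-, 5.05- and 6.12-fold lower. TP63, the transcription factor that keeps cells epidermal, had 2.87 CPM in the graft and 22.3 CPM in unwounded skin. Of the list of hair follicle and gland epithelium, 10 of 11 genes were lower, median -1.91, among them KRT7 (21.1 and 98.0 CPM), KRT8 (15.7 and 51.1 CPM) and EPCAM (6.2 and 32.0 CPM). With matched class weights this list's median was -0.22, and KRT7 (-0.30), KRT8 (-0.83) and EPCAM (-0.37) no longer passed 2-fold. The inner root sheath keratin KRT25 had 4 UMIs in the graft and 272 in unwounded skin. SCGB1D1, a secretoglobin and leading gene of the glandular cluster, was 4.79-fold lower, and the water channel AQP3 4.80-fold. With matched class weights their log2 ratios were -0.31 and -0.20. In the untreated graft, the epidermal genes had a median log2 ratio of -5.08 to the same unwounded library.

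Genes of capillary and arterial endothelium had a median of -0.17, with 3 of 19 lower and none higher. CD36, a fatty acid receptor of capillaries and fat cells, had 100 CPM in the inhibitor graft, against 348 CPM in unwounded skin, 3.47-fold lower (3.35 to 3.61). FABP4, a fatty acid carrier of the same cells, had 1185 and 2855 CPM, 2.41-fold lower, and BTNL9 48.5 and 106 CPM, 2.19-fold lower. The fat-handling list had 3 of 10 lower (CD36, FABP4 and the transcription factor CEBPA) and 1 higher, SCD, a desaturase also made in sebaceous glands, with 47.4 and 14.2 CPM. Its median was -0.68. The fat cell genes ADIPOQ, PLIN1 and LEP stayed below 10 CPM in both libraries. Of 12 endothelial activation and venule genes none passed 2-fold (median -0.12, VWF at 418 CPM in the graft and 399 CPM in unwounded skin). Angiogenic genes had 2 of 16 higher, the tip cell genes APLN (15.6 and 7.15 CPM) and ESM1 (10.0 and 4.51 CPM), and a median of 0.05.

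PTK2, the gene of the drug's target, had 63.7 CPM in the inhibitor graft, against 54.3 CPM in unwounded skin. Its RNA checks no inhibition, since the drug acts on the kinase. None of 24 genes of FAK, its adaptors and integrins passed 2-fold, and their median was 0.06. The integrin ITGB1 had 462 CPM in the graft and 402 CPM in unwounded skin, and the actin linker ACTN1 234 and 184 CPM. Of 16 YAP/TAZ genes, which follow tension, CCN2 was the one that passed (279 and 134 CPM), with a median of -0.04. Of 25 genes of TGF-beta, activin and BMP signalling, TGFBI was the one (224 and 45.0 CPM), with a median of -0.06. Matrix proteases and inhibitors had 2 of 16 higher, the gelatinase MMP2 (682 and 308 CPM) and the plasminogen activator PLAU (246 and 122 CPM), and TIMP4 lower. Among 11 Wnt ligands and modulators, SFRP2, SFRP4 and DKK3 were higher and APCDD1 lower, and the median was 0.06. None of 7 genes of IGF ligands and binding proteins passed. Contractile genes of smooth muscle had 1 of 13 higher, desmin (DES, 73.8 and 36.9 CPM), and a median of 0.12, with ACTA2, the actin of smooth muscle and myofibroblasts, at 1104 and 896 CPM.

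Each of the immune lists held from 0 to 2 called genes, where 4.6% of all genes were called. Interferon response genes had 1 of 26 higher, the chemokine CXCL9 (76.3 CPM in the graft, 33.3 CPM in unwounded skin), and a median of -0.28. IFI6, the most abundant of them, had 1495 and 1408 CPM. None of 8 antigen presentation genes passed (median -0.04). Chemokines and cytokines had 2 of 20 higher, CCL19, a ligand that draws T cells and dendritic cells (520 and 226 CPM), and the cytokine IL18 (14.6 and 6.71 CPM), with a median of -0.28. The complement gene CLU (clusterin) had 105 and 36.2 CPM, the 1 of 7 that was higher. Macrophage genes had 1 of 13 lower, F13A1, a transglutaminase of resident macrophages, with 20.3 and 66.6 CPM, while C1QB had 98.2 and 62.1 CPM. Much of the F13A1 RNA lay in fibroblast-like cells, at 755 UMIs in the graft and 1024 in unwounded skin. There it was a leading gene of cluster 14, so its lower value is not a reading of macrophages alone. GNLY, a granule protein of killer cells, had 11.1 CPM in the graft, against 67.3 CPM in unwounded skin, and GZMH 2.23 and 11.8 CPM, 2 of the 4 T and NK genes at the level. The log2 ratio of GNLY was -2.60, and -7.54 when only cells with at least 1000 genes were used. The median of the T and NK list was -1.24, and -0.12 with that filter. GNLY was seen in only 19 graft and 23 unwounded cells before it. Of the 2 B cell genes at the level CD79A was lower (25.5 and 54.3 CPM), but its log2 ratio was -0.81 with matched class weights. No cluster was named B or plasma-like, and 2 genes of this list reached 50 CPM in blood endothelial-like cells. CD79A is therefore not read here as a measure of B cells, and the part of B cells in its RNA was not tested. None of 6 mast cell genes passed. Erythrocyte RNA was low in both, with the globin gene HBB at 17.0 and 1.92 CPM, and its log2 ratio of 3.14 was -1.49 when barcodes under 500 genes were kept. The pigment gene PMEL had 17 UMIs in the graft and 188 in unwounded skin.

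Stress-related and mitochondrial genes stood slightly lower than the median gene in the graft. Immediate early genes had a median of -0.41, with 1 of 17 lower (FOSL1, 9.03 and 28.0 CPM) and FOS at 2734 CPM in the graft and 3788 CPM in unwounded skin. Heat shock genes had a median of -0.22, with HSPB8 the 1 of 14 that was lower. Mitochondrially encoded genes had a median of -0.45, all 13 with ratios below 1, and ND6 lower at 33.5 and 92.3 CPM. None of 15 cell cycle genes passed (median 0.01), and 1 of 18 glycolysis and hypoxia genes did, HK2, which was lower. Immediate early and heat shock genes also respond to tissue digestion, whose part in the other lists was not tested.

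**Figure D3:**
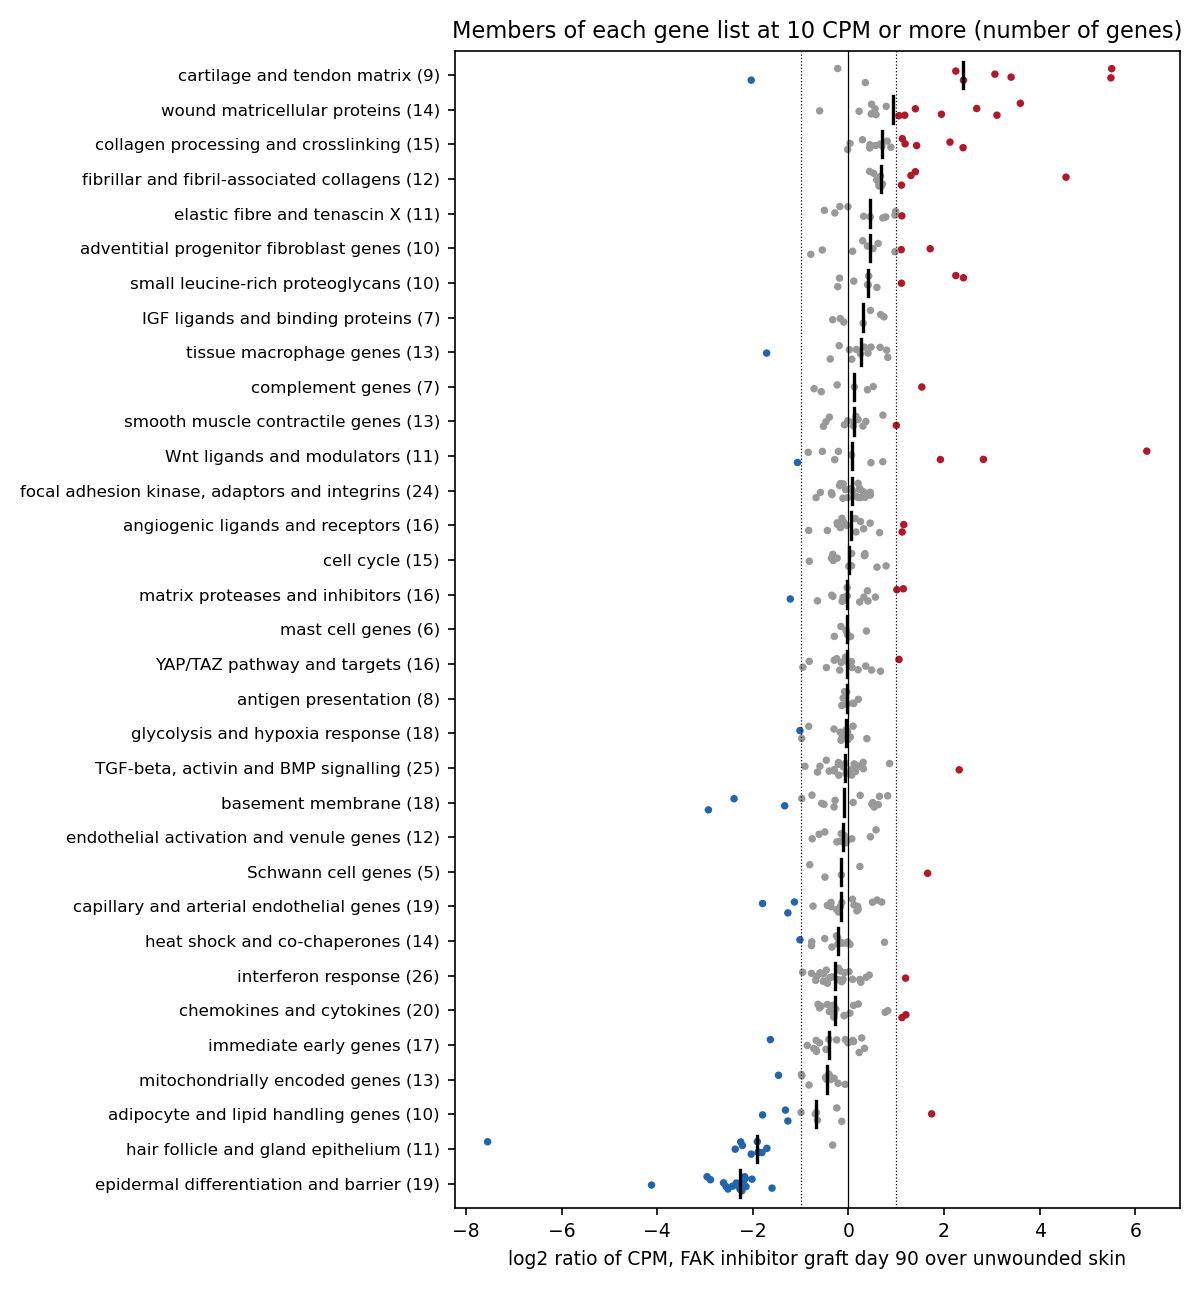
Log2 ratio of CPM, inhibitor graft day 90 over unwounded skin, for each member of the lists with at least 5 genes at the level; black bars are medians, red points at least 2-fold higher, blue points at least 2-fold lower, dotted lines 2-fold. Lists run from cartilage and tendon matrix (median 2.41) at the top to epidermal genes (median -2.27, but 0.14 with class weights matched between the libraries) at the bottom, and most lie near 0.

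Shares of cells with a UMI were compared after each cell was thinned to 2000 UMIs, which left 3546 graft and 1461 unwounded cells. The largest differences upward were in genes of the stromal matrix and cytoskeleton. Biglycan (BGN) was detected in 56.5% of graft cells, against 36.9% of unwounded cells, COL1A2 in 65.3% and 45.8%, TAGLN in 48.1% and 30.1%, and the lectin gene LGALS1 in 68.6% and 52.2%. In blood endothelial-like cells, at medians of 7751 UMIs in the graft and 6895 UMIs in unwounded skin before thinning, the shares were 3.18% and 2.76% for BGN, 19.0% and 9.25% for COL1A2, 16.5% and 11.4% for TAGLN and 16.9% and 8.66% for LGALS1. The shares given first are over all cells, and fibroblast-like and pericyte or smooth muscle-like cells made up more of the graft. Fibroblast-like cells were 21.3% of graft and 16.4% of unwounded cells, and pericyte or smooth muscle-like cells 26.5% and 19.3%. The parts of this class mix and of free RNA in the differences were not tested. SFRP2 was seen in 10.8% and 1.64%. Downward, besides KRT14 (3.50% and 14%), the largest differences included mitochondrial and ribosomal protein genes and the transcription factors CEBPD and KLF4. The mitochondrial ND3 was detected in 70.6% of graft and 86.2% of unwounded cells, the ribosomal protein gene RPL38 in 76.3% and 90.5%, the factor CEBPD in 8.32% and 18.5% and KLF4 in 60.3% and 70.6%. By whole-library CPM CEBPD was 2.85-fold lower, whereas ND3 (ratio 0.508) and RPL38 (ratio 0.501) stayed just short of 2-fold.

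Cells of both libraries were clustered together and clusters named from marker lists, which gave 11 classes called X-like and 1 unnamed cluster. The inhibitor graft yielded a smaller share of epithelial cells and more stromal cells. Keratinocyte-like cells were 1.88% of graft cells (1.47 to 2.36), against 9.77% of unwounded cells (8.36 to 11.3), and glandular epithelial-like cells 0.627% and 2.59%. Fibroblast-like cells were 21.3% (20.0 to 22.6) and 16.4% (14.6 to 18.3), and pericyte or smooth muscle-like cells 26.5% and 19.3%. Blood endothelial-like cells were 27.9% and 35.8%, but with each library clustered alone the ratio of shares was 0.999. Mast-like (4.67% and 3.72%), myeloid-like (2.66% and 2.14%), T or NK-like (2.12% and 1.51%), cycling-like, lymphatic endothelial-like and Schwann-like cells had overlapping intervals. The myeloid-like ratio of shares was 1.24, and 0.734 with libraries clustered alone. The T or NK-like ratio was 1.40, and 0.731 in cells of at least 1000 genes. The unnamed cluster held 7.73% of graft and 5.42% of unwounded cells, at medians of 32435.5 and 31091 UMIs, and mixed blood endothelial with pericyte markers. Fibroblast-like cells also held more UMIs each, a median of 15749.5 in the graft and 10299 in unwounded skin, and so supplied 28.8% and 17.7% of all UMIs. Digestion and capture also set such shares, and their part was not tested.

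**Figure D4:**
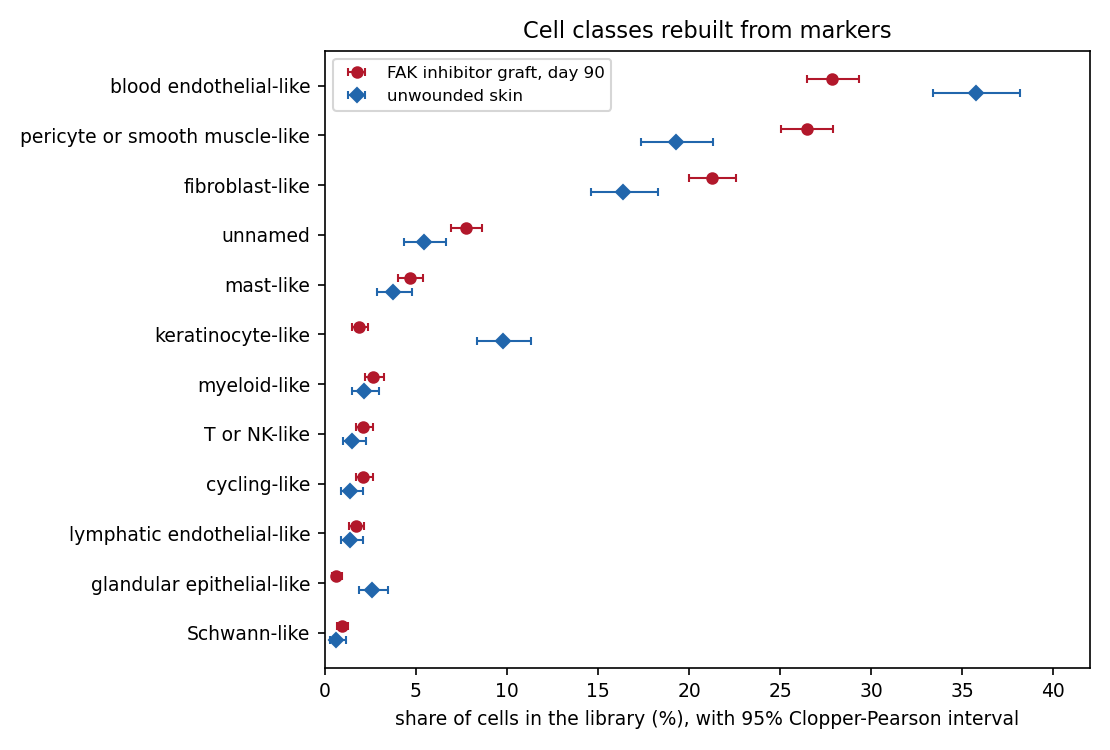
Share of cells (horizontal, %) in each class of the inhibitor graft at day 90 (upper point of each pair) and unwounded skin (lower point), with exact Clopper-Pearson intervals for counting error. Keratinocyte-like and glandular epithelial-like shares are lower in the graft, fibroblast-like and pericyte or smooth muscle-like shares higher.

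With matched class weights, 63 genes were higher, 50 of them among the 105, and 99 were lower, 47 of them among the 247. The collagen median shrank to 0.03, and the epidermal median turned to 0.14. SFRP2 stayed at 5.59 on the log2 scale, THBS4 at 4.95, COL11A1 at 5.02, CTHRC1 at 2.95 and PI16 at 1.03, while COL1A1 came to -0.11 and COL3A1 to -0.25. Named higher genes that fell short of 2-fold under these weights included FN1 (0.64), CCN2 (0.64), BGN (0.67), MFAP4 (0.53), MMP2 (0.61), PLAU (0.73), DES (0.69), CCL19 (0.78), IL18 (0.89) and SELENOM (0.96). Named lower genes that fell short, besides the epithelial genes given above, included SOX9 (-0.08), HSPB8 (-0.22), CEBPA (-0.52), HK2 (-0.56), CD79A (-0.81) and FOSL1 (-0.87). The medians were 1.83 for cartilage and tendon matrix, 0.54 for wound matricellular proteins, 0.24 for collagen crosslinking and -0.22 for small leucine-rich proteoglycans. KRT15 stayed lower at -1.67 and CD36 at -1.71. C1QTNF12 (3.61 CPM in the graft, 57.4 CPM in unwounded skin) and ZNF599 (11.3 and 136 CPM) stayed lower at -1.79 and -1.82. Leaving out the keratinocyte-like and glandular epithelial-like cells, an alternative chosen after seeing the data, gave 84 higher and 104 lower genes. There C1QTNF12 came to -1.24 and ZNF599 to -0.29.

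Within fibroblast-like cells (814 of the graft, 260 of unwounded skin), cartilage, tendon and some matricellular genes were still far apart while the main collagens were level. Of 2069 genes at 50 CPM in either class sum, 79 (3.82%) were at least 2-fold higher and 139 (6.72%) at least 2-fold lower. The class is spread differently over its clusters: cluster 4 held 45.1% of its graft cells and 18.8% of its unwounded cells, cluster 6 29.7% and 51.9%, cluster 14 5.65% and 29.2%, and cluster 11 19.5% and none. Cluster 11, whose leading genes were SFRP2, COL1A1, THBS4, COL1A2, PTN and COL11A1, comes from the graft library alone, so these genes are described in the class and not offered as separate findings. SFRP2 had 2918 CPM in graft and 51.6 CPM in unwounded fibroblast-like cells, 56.6-fold higher, and was detected in 41.8% and 7.20% of thinned cells. In blood endothelial-like cells, which should lack it, SFRP2 was detected in 1.29% of the graft's and 0.197% of the unwounded library's thinned cells. THBS4 had 666 and 18.6 CPM, COL11A1 537 and 15.8 CPM, COL8A1 405 and 18.0 CPM, and TNC 399 and 27.3 CPM. With cluster 11 left out, a choice made after seeing the data, 45 genes were higher and 81 lower, and the log2 ratios were 4.87 for SFRP2, 3.34 for THBS4, 3.86 for COL11A1, 4.22 for COL8A1 and 2.99 for TNC. By contrast COL1A1 had 110771 CPM in graft and 121844 CPM in unwounded fibroblast-like cells, and COL3A1 44306 and 53748 CPM. The collagen list had 1 of 12 higher there, COL8A1, with a median of -0.02, against 0.04 over all genes of the class.

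Contractile genes hardly differed in the whole library. Within fibroblast-like cells 5 of the 14 measured reached 50 CPM in either class sum, and 4 of these were higher, median 1.70. ACTA2 reached that level through the graft class alone, so the level rule shapes this count and median. ACTA2 had 366 CPM in graft and 23.9 CPM in unwounded fibroblast-like cells, 15.3-fold higher (12.2 to 19.4), and TAGLN 879 and 62.4 CPM, 14.1-fold higher. Most ACTA2 RNA lay elsewhere: pericyte or smooth muscle-like cells held 71.3% of it in the graft and 74.8% in unwounded skin, at 5999 and 6154 CPM. In thinned cells ACTA2 was seen in 14.4% of graft and 2.80% of unwounded fibroblast-like cells, against 2.98% and 1.97% of blood endothelial-like cells, so its unwounded fibroblast-like share is near that of a class without it. Without cluster 11 the log2 ratios were 2.80 for ACTA2 and 2.51 for TAGLN. IGFBP2, a binding protein of insulin-like growth factors, had 424 CPM in graft and 29.5 CPM in unwounded fibroblast-like cells, and IGFBP4 142 and 41.0 CPM. They were 2 of the 4 genes of that list at 50 CPM, and both reached it through the graft class alone. PI16 was 2.03-fold higher in the class (1491 and 734 CPM), while CLEC3B was 2.06-fold lower (1035 and 2137 CPM).

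The lowest ratios in fibroblast-like cells belonged to KRT8, AGT (angiotensinogen), KRT14, MYOC, FCN2, F13A1, GPC3 and PENK. Of the fat-handling list 4 of 5 were lower, median -1.54: the apolipoproteins APOD (137 and 713 CPM, 5.20-fold) and APOE (2353 and 6848 CPM, 2.91-fold), FABP4 and the lipase LPL. Endothelial genes moved in the same class, with 3 of 4 capillary and arterial genes lower, 1 higher and a median of -1.55. FABP4 was detected in 2.88% of graft and 6.40% of unwounded thinned fibroblast-like cells, against 48.3% and 63.2% of blood endothelial-like cells, and the part of endothelial RNA in these values was not tested. AGT had 7.06 CPM in graft and 86.1 CPM in unwounded fibroblast-like cells, 12.2-fold lower, and the lectin FCN2 10.7 and 77.1 CPM, 7.23-fold lower. Before thinning FCN2 was seen in 3.19% (2.10 to 4.65) of graft and 6.15% (3.56 to 9.80) of unwounded cells of the class. These intervals overlap. Complement factor D (CFD) had 753 and 2621 CPM, 3.48-fold lower. The proteoglycan GPC3 had 103 CPM in graft and 581 CPM in unwounded fibroblast-like cells, proenkephalin (PENK) 72.4 and 406 CPM, myocilin (MYOC) 21.9 and 204 CPM, and F13A1 52.2 and 318 CPM. The elastic fibre genes EFEMP1 (148 and 340 CPM), LTBP4 (79.0 and 177 CPM) and FBLN1 (263 and 528 CPM) were also lower, as was the Wnt inhibitor APCDD1 (54.7 and 180 CPM). KRT8 and KRT14, epithelial genes, had 5.95 and 104 CPM, and 5.40 and 64.3 CPM, where epithelial cells were a smaller share of the graft than of unwounded skin. All KRT8 UMIs of the class came from 2 graft cells and 3 unwounded cells. KRT14 was seen in 1.0% of graft and 2.0% of unwounded thinned fibroblast-like cells, against 1.39% and 2.76% of blood endothelial-like cells.

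**Figure D5:**
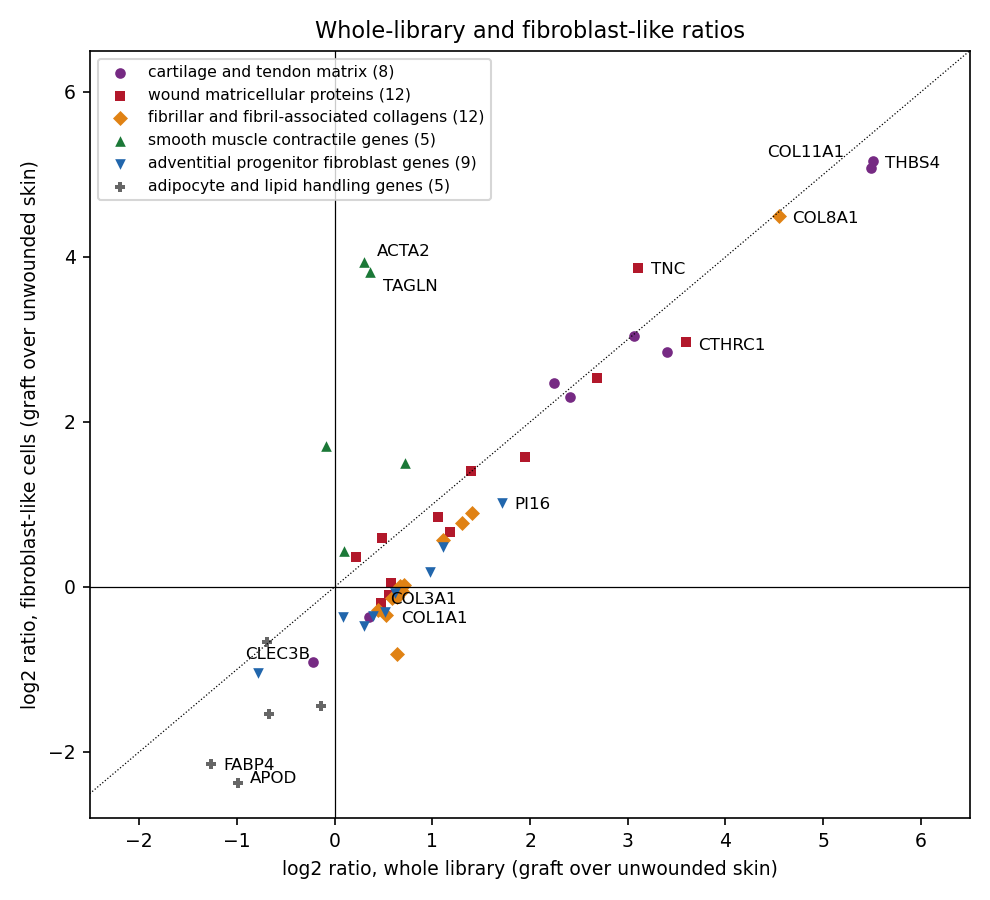
Log2 ratio, inhibitor graft day 90 over unwounded skin, within fibroblast-like cells (vertical) against the whole library (horizontal), for members of 6 lists at the level in both; the dotted line marks equal ratios. Cartilage, tendon and matricellular genes lie along the line, the main collagens lie near 0 within the class, and ACTA2 and TAGLN stand far above the line.

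Pericyte or smooth muscle-like cells numbered 1013 in the graft and 306 in unwounded skin, and in their sums 19 of 2610 genes (0.728%) were higher and 19 (0.728%) lower. Those higher were led by chemokines and interferon-responsive genes. CXCL9 had 1317 UMIs in the graft class and 0 in the unwounded class, at least 132-fold higher against a floor of 3 counts, and its graft UMIs came from few cells, being seen in 2.26% of thinned cells. CXCL10 had 318 and 65.1 CPM, 4.88-fold higher. It was detected in 13.3% (11.3 to 15.6) of graft and 9.80% (6.71 to 13.7) of unwounded cells of the class before thinning, shares whose intervals overlap. The viral restriction gene BST2 had 61.2 and 15.6 CPM, and the class II gene SLA-DQB1 133 and 34.3 CPM. The interferon list had 3 of 11 higher and a median of 0.82, against -0.01 over all genes of the class, with the immunoproteasome gene PSMB8 at 159 and 87.8 CPM and the transcription factor IRF1 at 734 and 1126 CPM. CCL19 had 1964 CPM in graft and 744 CPM in unwounded cells of the class and was detected in 56.9% and 30.3% of thinned cells. CCL19 is a leading gene of cluster 7, which held 24.8% of the class in the graft and 30.1% in unwounded skin. None of 13 contractile genes passed (median -0.07), with CNN1 at 241 and 430 CPM and MYH11 at 1144 and 1891 CPM. Lower genes included PAPPA2 (5.47 and 63.1 CPM), MFAP4 (135 and 529 CPM) and CEBPD (55.0 and 158 CPM). Of the smooth muscle-rich cluster 12, 8.0% of the graft class and 19.3% of the unwounded class were members.

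In blood endothelial-like cells (1067 and 567), 5 of 2497 genes (0.2%) were higher and 25 (1%) lower. CD36 had 254 CPM in graft and 1003 CPM in unwounded cells of the class, 3.96-fold lower, and was detected in 8.45% and 36.6% of thinned cells. FABP4 had 3232 and 8108 CPM, BTNL9 127 and 310 CPM, the retinol carrier RBP7 71.4 and 258 CPM and the lipase regulator ANGPTL4 70.5 and 240 CPM. These genes lead cluster 13, apart from ANGPTL4, and that cluster held 3.84% of the class in the graft and 16.6% in unwounded skin. The higher genes were SELENOM, the laminin LAMB1 (178 and 87.0 CPM), PRSS23, EGFL8 and HBB. The globin gene HBB had 815 UMIs from 12 graft cells and 18 UMIs from 6 unwounded cells. With libraries clustered alone, 96 genes were higher in this class.

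In keratinocyte-like cells (72 of the graft, 155 of unwounded skin), 29 of 2237 genes (1.3%) were higher and 46 (2.06%) lower. The epidermal genes that were so much lower in the whole library were level here, with 2 of 21 higher, 1 lower and a median of 0.21, against -0.13 over all genes of the class. KRT5 had 15670 CPM in graft and 15118 CPM in unwounded keratinocyte-like cells, and KRT14 25092 and 20737 CPM. Higher were KRT2 (162 and 22.3 CPM) and involucrin (IVL, 59.3 and 7.20 CPM), both of the upper epidermis, with IVL seen in 5 graft and 9 unwounded cells, and S100A12 (307 and 49.3 CPM). KRT15 was lower at 1198 and 3773 CPM, and the hair keratins KRT85 and KRT31 had 306 and 190 UMIs in unwounded cells and 0 in graft cells, at least 50.7- and 31.5-fold lower against the floor. Those UMIs came from 5 and 4 of the 155 unwounded cells, and 0 of 72 graft cells allows a share of up to 4.99% (Clopper-Pearson), above the 3.23% and 2.58% seen in unwounded cells. In mast-like cells (179 and 59), 176 of 2922 genes (6.02%) were higher and 194 (6.64%) lower, on medians of 1835 and 2389 UMIs per cell. The whole class held 401176 UMIs in the graft and 158487 in unwounded skin, so a call at 50 CPM can rest on few UMIs. FAM92A, called lower, had 2 and 8 UMIs. These shares therefore cannot be set beside those of the larger classes. The higher ones were led by fibroblast genes, COL1A1 at 1319 and 158 CPM and COL1A2 at 773 and 69.4 CPM, while none of 8 mast cell genes passed (median 0.08). In unthinned mast-like cells COL1A1 was detected in 38.5% and 35.6%, and COL1A2 in 32.4% and 13.6%. The part of free RNA and of doublets in these values was not tested. The other classes had fewer than 50 cells in 1 or both libraries and were not compared.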

How the data were processed

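Whole-number UMI counts per gene and cell were deposited by the authors as 10x matrices, 1 per library. Cell Ranger and Seurat 3.1.1 are named per the submitters' processing notes, and the matrix header gives software version 3.1.0. For the Cell Ranger version and the build, nothing is given in the sources used here. The smallest barcodes held 503 UMIs in the inhibitor graft and 501 in unwounded skin.

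Cells with at least 500 genes were kept, and their UMIs were summed per library and scaled to CPM. A gene was called at 2-fold or more with at least 10 CPM in either library (50 CPM within a class); a class sum of 0 was set to a floor of 3 counts. Ratio intervals are exact binomial, level intervals exact Poisson and shares Clopper-Pearson. They cover counting error only. The total of 50159160 UMIs in the inhibitor graft and 18191126 in unwounded skin sets that error. Detection shares used cells thinned to 2000 UMIs. No significance test between the groups was run, since each group is 1 library.

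Cells of both libraries were clustered with scanpy 1.11.5 and leidenalg 0.10.2 (Python 3.11.15; 2000 variable genes, 30 components, 20 neighbours, resolution 1), and clusters named from 142 measured markers. An automatic doublet threshold marked 4 cells per library, too few to rely on, so doublets were kept and an alternative removed the 117 and 20 top-scoring cells. The fold rule and its intervals were checked on simulated Poisson counts with known fold changes, which were recovered. Those counts follow the error that the intervals assume, so the check concerns the code and not variation between libraries. Cluster naming was checked on simulated fibroblast, keratinocyte and mast cells with raised markers and no free RNA or doublets, and thinning on random counts. Genes named were drawn from the 20 of highest and 20 of lowest ratio at 50 CPM (ranked by the interval bound nearest 1). Further sources were the 10 largest differences in detection each way, 8 each way per class, called list members and examples for lists. Not all genes of these sets are given, and others were chosen after their values were seen. The members and the 38 gene lists were chosen with earlier results of these data known. Alternatives changed the cell filter, level, fold, scaling, class weights, doublets, thinning and clustering. Some list members are not reported here.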

Additional observations from a re-analysis of the deposited data

How the results depend on the processing

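The 105 higher genes became 66 when each cell was scaled to CPM before averaging, 63 with matched class weights, 48 at a level of 50 CPM, 448 at 1 UMI and 309 at 1.5-fold. The 247 lower genes became 99 with matched class weights, 64 at 50 CPM, 1746 at 1 UMI, 587 at 1.5-fold and, in an alternative chosen after seeing the data, 104 without epithelial cells. Looser or stricter levels and folds change these counts by construction; for the others the cause was not tested. The ratio of blood endothelial-like shares was 0.779, but 0.869 at resolution 0.5 and 0.999 with libraries clustered alone. The myeloid-like ratio was 0.734 with libraries clustered alone, and the T or NK-like ratio 0.731 with at least 1000 genes per cell. In blood endothelial-like cells 96 genes were higher with libraries clustered alone. Without cluster 11, chosen after seeing the data, fibroblast-like cells had 45 higher and 81 lower genes.

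With matched class weights the epidermal median reversed to 0.14, as did CALML5 (0.25), CLDN4 (0.15), DSC1 (0.27), DSG1 (0.091), DSP (0.0024), EHF (0.41), FOXA1 (0.035), KRT1 (0.43), KRT10 (0.70), KRT14 (0.14), KRT5 (0.022), KRTDAP (0.29), LYPD3 (0.24), PERP (0.19), PKP1 (0.29) and PKP3 (0.12). Without epithelial cells AQP5 (0.31), CALML5 (0.59), CLDN4 (1.20), DSC2 (0.047), SCD (-0.14) and SOX9 (0.45) reversed. The erythrocyte list and HBB came to -1.49 with all barcodes, and HBB to -0.94 with each cell scaled. The log2 ratio of SFRP2 ran from 5.05 to 6.26 and that of CTHRC1 from 2.95 to 3.65. No paired analysis was possible because each group is 1 library and no result comes from a test.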

Other observations

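Below 50 CPM, and chosen after their values were seen, 2 genes had ratios beyond that of SFRP2 or close to it. The protease-like gene PRSS35 had 44.7 CPM in the inhibitor graft, against 0.55 CPM in unwounded skin, and MAP1LC3C, an autophagy gene, 30.4 and 0.44 CPM. Within fibroblast-like cells MAP1LC3C had 96.5 CPM in the graft and 0 UMIs in unwounded skin, at least 103-fold higher against a floor of 3 counts.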
